A study of Mus musculus with 2 samples.

Results

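The actin isoforms and the β-thymosins form a group of 8 genes, 6 actins and 2 thymosins, out of 8251 genes named on the array. They were chosen by gene name and not by their values, although earlier results of these data were known at that time. A probe set is the group of short oligonucleotides that reports 1 transcript on the Affymetrix MG_U74Av2 array. Of 12488 probe sets, 10 were named for exactly 1 of the 8 genes, and the 3 control probe sets at the 3′ end, middle and 5′ end of the β-actin transcript were added to Actb, which gave 13. The annotation also names 3 antisense β-actin controls for Actb, and these served as negative controls.

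RNA came from 3T3 cells, an immortalised mouse embryo fibroblast line, in serum-free DMEM medium. In the fibronectin group the cells had been plated for 30 min on fibronectin at 10 µg/ml, an adhesive matrix protein that cells grip through integrins. In the suspension group they had no substrate to attach to. A time was recorded here for the fibronectin sample only. The series text speaks of 2 replicates, whereas the labels give 1 sample per group. With 1 array per group, differences are given without p-values, and "higher" or "lower" refers to these 2 arrays alone. The labels state an interest in genes induced by fibronectin and in MAPK signalling.

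Actin exists as free monomers and as filaments, and attachment and spreading of a cell build filaments into stress fibres and lamellipodia. Non-muscle cells use the cytoplasmic β- and γ-actins, while the skeletal, cardiac and smooth muscle isoforms serve contractile tissue, although cultured fibroblasts often express the smooth muscle α-actin gene Acta2. The β-thymosins are very small proteins that bind actin monomers and keep them from polymerising. Free monomer also holds back the MRTF coactivators of the transcription factor SRF, and SRF binds a DNA element called the CArG box in front of many actin genes.

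The CArG boxes nearest to the starts of the actin genes are shown because they are the element through which free actin is known to feed back on actin transcription. RefSeq promoter windows of the GRCm38.p6 assembly, from 250 bases before to 50 after a start, were matched by symbol for 6 of the 8 genes, in 8 windows of which 3 belong to Tmsb10. Actb and Actg2 had no entry. The consensus CArG box, which reads the same on both strands, lay in the windows of 3 members, Actg1, Acta1 and Actc1, and in 1.63% of all 32851 windows. In the lines below, written 5′ to 3′ on the gene's strand, the capitals mark the box.
Actg1, chr11:120348551-120348610, minus strand: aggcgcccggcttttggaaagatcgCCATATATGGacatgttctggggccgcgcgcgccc
Acta1, chr8:123894814-123894873, minus strand: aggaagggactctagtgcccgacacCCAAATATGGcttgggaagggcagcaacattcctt
Actc1, chr2:114052888-114052947, minus strand: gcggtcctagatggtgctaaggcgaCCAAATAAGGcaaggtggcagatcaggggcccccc
The box began 90 bases before the start in Actg1, 73 in Acta1 and 47 in Actc1. A match describes these letters only. The windows of Acta2, Tmsb4x and Tmsb10 held no match to the consensus, which leaves boxes that depart from it uncounted.

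A signal below is a MAS5 intensity, scaled so that both arrays share the same trimmed mean. A log2 ratio is fibronectin minus suspension, taken after signals under a common floor of 490 were raised to it, and a probe set counted as measured when at least 1 array reached the floor. Signals of different probe sets are not compared as amounts of RNA, because oligonucleotides differ in how strongly they bind. The error of a ratio was taken from the disagreement between probe sets of 1 gene, with an SD of 0.38 on the log2 scale (1.30-fold) over 73 genes whose probe sets both had a mean signal of 4096 or more. It was 0.68 over all 1146 genes with more than 1 measured probe set. This error covers differences between probe sets and not those between cultures.

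The labelled cell type was checked first. Of 11 fibroblast markers, 8 lay above the 95th percentile of the negative controls in both arrays, 1873 on fibronectin and 1403 in suspension, among them the collagen genes Col1a1 and Col1a2 and the platelet-derived growth factor receptor gene Pdgfra. The others, Vim, Thy1 and Lum, did not. None of 13 skeletal muscle, 10 cardiac muscle, 5 epithelial or 5 endothelial markers did so, and 1 of 7 on the array for macrophages and blood did, Cd14. Of 4 smooth muscle markers on the array 3 did, namely Smtn, Cnn1 and Tagln, which fibroblasts can also express. The summed signal of the fibroblast markers was 187138 on fibronectin and 120183 in suspension, and that of the smooth muscle markers was 24654 on fibronectin and 28769 in suspension. Their part in the results was not tested.

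Across the 8 genes, γ-actin and smooth muscle α-actin had close signals in both arrays, and β-actin differed between its probe sets. Both thymosins and Actg2, the smooth muscle γ-actin, were lower on fibronectin. Of 12 measured probe sets, 5 of which read Actb, 8 had a ratio below 0 and 4 above. Over all measured probe sets with 1 gene name the median was -0.08, so ratios below 0 were the more common there too. At a 2-fold threshold 1 of the 12 was lower, the family probe set of Actb, and 0 were higher. Over all measured probe sets with 1 gene name 9.48% were lower by that much and 6.40% higher. At 1.5-fold 5 of the 12 were lower and 0 higher, against 22.7% and 16.6% of all measured probe sets. Of the 5, 1 is the incomplete probe set of Actc1, with both signals below the 95th percentile of negative controls. Over the 11 probe sets above that percentile in both arrays, 4 were lower by 1.5-fold or more and 0 higher. This count was added after the values were seen. The share of all probe sets above that percentile was not counted, so it has no like background. Signals of all 13 are shown in the plot of signals by probe set.

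**Figure D1:**
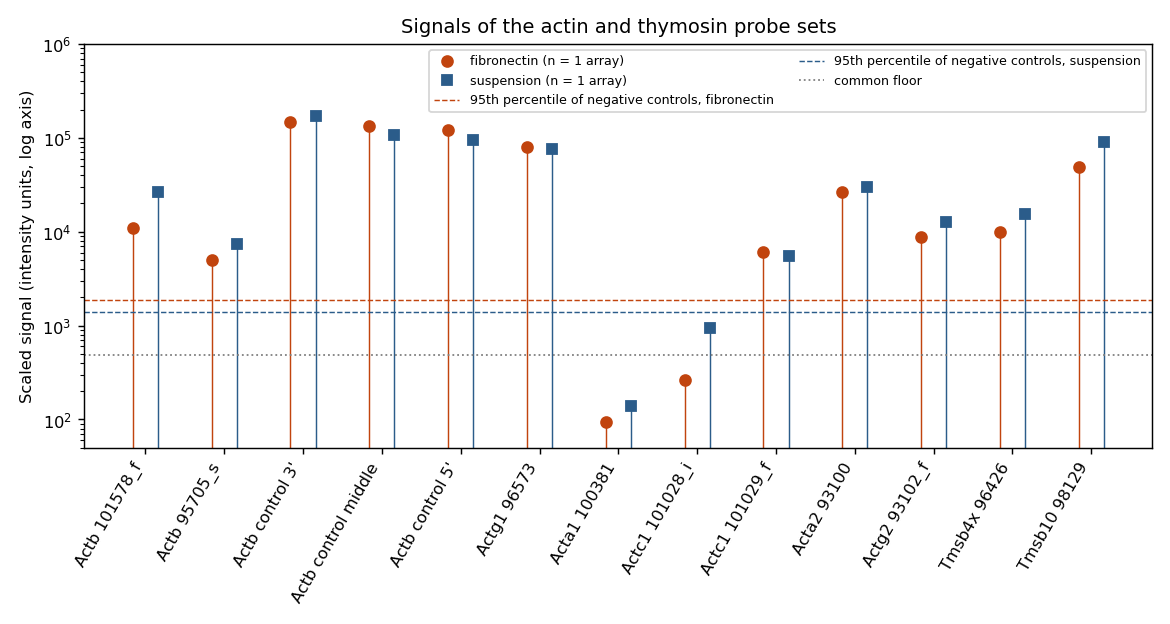
Scaled signals (log axis) of the 13 probe sets on fibronectin (circles) and in suspension (squares), 1 array each; dashed lines are the 95th percentiles of negative controls and the dotted line is the floor. The 11 probe sets other than that of Acta1 and the first of Actc1 lie above both dashed lines in both arrays.

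Among the cytoplasmic actins, the γ-actin gene Actg1 had a signal of 80256 on fibronectin and 76275 in suspension. These signals lay within 1.05-fold of each other, a log2 ratio of 0.07, which is smaller than the error of 0.38 and was -0.40 when the arrays were scaled to the hybridisation spikes, the control transcripts added before hybridisation. For β-actin (Actb) the 5 probe sets did not give 1 answer. The family probe set, 101578_f_at, had a signal of 10997 on fibronectin and 26230 in suspension and was 2.39-fold lower, a ratio of -1.25. The shared probe set, 95705_s_at, had 4966 on fibronectin and 7477 in suspension, 1.51-fold lower. By Affymetrix naming the letter f marks oligonucleotides that match a family of related sequences, and s marks those shared by similar transcripts. These signals may therefore include other actins or actin-related copies, which was not tested. The family probe set is listed under the same β-actin sequence as the control probe sets.

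The control probe sets of Actb, which read 3 positions on the same transcript, lay close to 0. The 3′ control had 145816 on fibronectin and 171893 in suspension, a ratio of -0.24, which was 0.18 after quantile normalization. The middle control had 134563 on fibronectin and 107209 in suspension, a ratio of 0.33, which was -0.15 with scaling to the spikes. The 5′ control had 122480 on fibronectin and 95784 in suspension, a ratio of 0.35, which was -0.12 with that scaling. The 5 ratios of Actb thus ran from -1.25 to 0.35, with a mean of -0.28 ± 0.67 (SD over 5 probe sets, which share 1 sample per group). This SD is larger than the 0.38 found between probe sets of bright genes in general. A direction for β-actin RNA as a whole was not settled. The antisense β-actin controls had 1712, 756 and 862 on fibronectin at the 3′ end, middle and 5′ end, against 1076, 1081 and 613 in suspension.

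**Figure D2:**
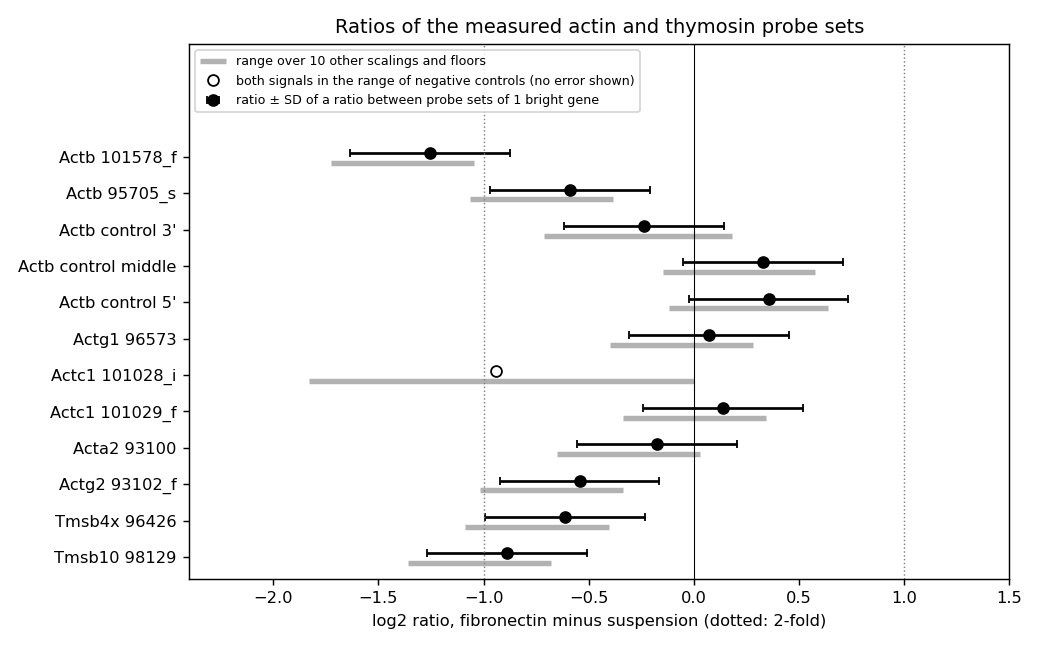
Log2 ratios (fibronectin minus suspension) of the 12 measured probe sets with the SD of 0.38 between probe sets of bright genes (black), and the range over 10 other scalings and floors (grey), the open circle being the incomplete probe set of Actc1, whose signals lie in the range of negative controls. Both thymosins, the family and shared probe sets of Actb and the probe set of Actg2 stay below 0 over that range, while the 3 Actb controls, Actg1, Acta2 and the family probe set of Actc1 cross it.

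Among the muscle actins, Acta2 and the family probe set of Actc1 gave small ratios, and Actg2 was 1.46-fold lower. The signals of Acta1 and of the other Actc1 probe set lay near background. Acta2, the smooth muscle α-actin that also marks activated fibroblasts, had a signal of 26675 on fibronectin and 30149 in suspension, 1.13-fold lower, and its log2 ratio of -0.18 was 0.03 under median scaling. Actg2, the smooth muscle γ-actin of the gut, had 8790 on fibronectin and 12816 in suspension, 1.46-fold lower, in a probe set of the family type. Its ratio of -0.54 stayed below 0 under all 10 other scalings and floors, from -1.02 to -0.34, although the floors cannot move a signal this bright. The family type means that the signal may include other actins.

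Actc1, the cardiac α-actin, was read by a pair of probe sets that differed. Its family probe set, 101029_f_at, had 6118 on fibronectin and 5567 in suspension, 1.10-fold higher, and this ratio of 0.14 was -0.34 with scaling to the spikes and also just below 0 after quantile normalization. The other probe set, 101028_i_at, for which the letter i marks an incomplete set of unique oligonucleotides, had 264 on fibronectin and 939 in suspension. Neither signal exceeded the 95th percentile of negative controls, so no fold is given for it. Acta1, the skeletal α-actin, had 93.7 on fibronectin and 138 in suspension. Both signals lie below the floor, so no ratio is given.

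The thymosins were lower on fibronectin in both genes. Tmsb10 (thymosin β10) had a signal of 48864 on fibronectin and 90420 in suspension, 1.85-fold lower, a log2 ratio of -0.89 or 2.34 times the SD of a ratio. Tmsb4x (thymosin β4, the main monomer-sequestering protein of many cells) had 10018 on fibronectin and 15325 in suspension, 1.53-fold lower, a log2 ratio of -0.61 or 1.61 times that SD. Each gene has 1 probe set on the array, so neither value has a second reading. Both stayed below 0 under all 10 other scalings and floors, Tmsb10 from -1.36 to -0.68 and Tmsb4x from -1.09 to -0.41. The floors among these cannot move signals this bright, so the ranges come from the scalings.

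Differences between ratios of probe sets do not depend on a common scaling factor per array, and Actg1 was taken as the point of comparison after its values were seen. Relative to Actg1, Tmsb10 was 1.95-fold lower on fibronectin, a difference in log2 ratio of -0.96 that ran from -1.06 to -0.95 over all settings. Tmsb4x was 1.61-fold lower relative to Actg1, a difference of -0.69 with a range from -1.06 to -0.66. For Actg2 the difference was -0.62, and for the shared and family probe sets of Actb it was -0.66 and -1.33. The SD of such a difference is 0.54, so that of the family probe set lay 2.47 SDs below 0, that of Tmsb10 1.79 SDs and that of Tmsb4x 1.28 SDs. For Acta2 the difference was -0.25, and the Actb controls differed from Actg1 by -0.31 at the 3′ end, 0.25 in the middle and 0.28 at the 5′ end, each within 1 SD of 0.

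Read from the probe set of highest mean signal for each gene, 7 of the 8 genes were measured, 5 with a ratio below 0 and 2 above. At 2-fold 0 of the 7 were lower and 0 higher, against 9.15% and 5.75% of the 6385 measured genes. At 1.5-fold 2 were lower, Tmsb10 and Tmsb4x, and 0 higher, against 22.4% and 15.8%. The median ratio of the 7 was -0.24, and that of all measured genes was -0.09. Median scaling moved the median of the members to -0.03 and that of all measured genes to 0.10. Scaling to the spikes moved the median of the members to -0.71 and that of all measured genes to -0.51.

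Ratios scatter less among bright genes, so the members were also set beside the brightest 10% of the measured genes. These are 639 genes with a mean signal of at least 5760, and 7 of the 8 members are among them. Their median ratio was 0.10. Of them, 0.939% were 2-fold lower or more, and 5.48% were 2-fold higher or more. At 1.5-fold 6.10% were lower and 21.9% higher, so lower ratios of that size were less common there than higher ones. Tmsb10 had a lower ratio than all but 2.03% of these bright genes, Tmsb4x than all but 5.16% and Actg2 than all but 7.51%. The family probe set of Actb had a lower ratio than all but 0.313% of them. Actg1 lay near the middle, with 47.9% of the bright genes below it, and Acta2 had 26.6% below it. After loess normalization the ratio of Tmsb10 was -0.88, against a median of -0.04 for these bright genes, and after quantile normalization it was -0.83, against -0.03.

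**Figure D3:**
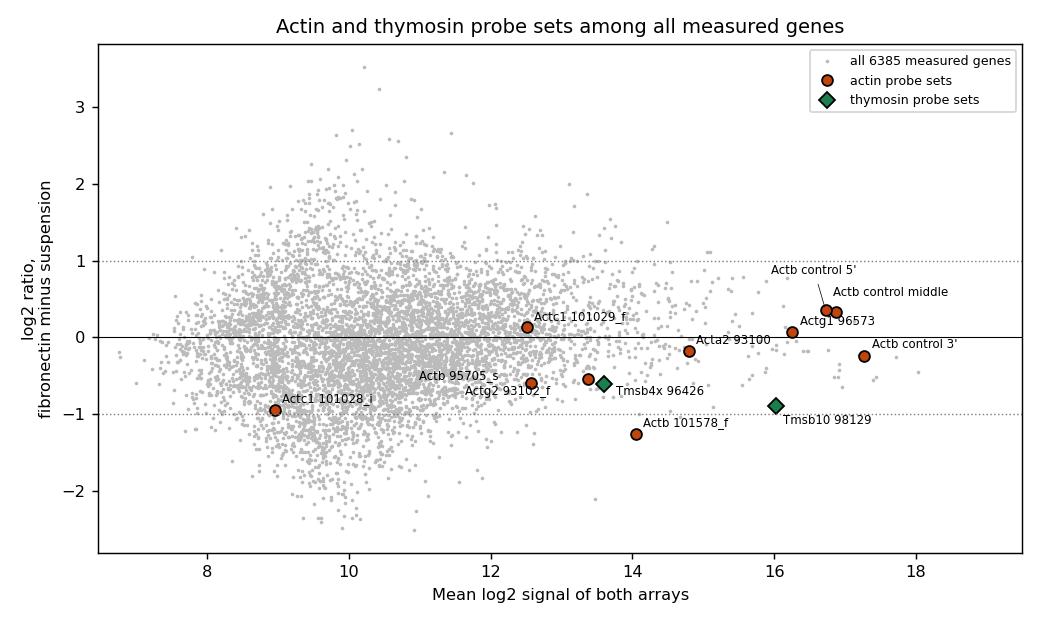
Log2 ratio (fibronectin minus suspension) against the mean log2 signal of both arrays for the 6385 measured genes (grey), the actin probe sets (circles) and the thymosin probe sets (diamonds). Tmsb10 and the family probe set of Actb lie at the lower edge of genes of similar signal, and Actg1 and the 3 Actb controls lie near 0.

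The 3 β-actin controls also report how even the signal was along the transcript. Labelling starts at the 3′ end, and what made the signal uneven was not tested. The signal of the 3′ control over that of the 5′ control was 1.19 on fibronectin and 1.79 in suspension, a log2 difference of -0.59 between the arrays. A single scaling factor per array does not move it. Quantile normalization gave -0.45 and loess -0.55, both computed for this difference after the data were seen. The same ratio for Gapdh, a glycolytic enzyme gene used as a second control, was 0.841 on fibronectin and 1.47 in suspension, a log2 difference of -0.81. In both transcripts the 3′ end was dimmer and the 5′ end brighter on fibronectin. For Gapdh the 3′ control had 55680 on fibronectin and 63871 in suspension, and the 5′ control had 66244 on fibronectin and 43380 in suspension. The ratio between the arrays for 1 transcript therefore differed with the position read. For Actb this was by about the size of the ratios of Tmsb4x and Actg2. For Gapdh the difference of -0.81 was near the Tmsb10 ratio of -0.89. The part of this in the ratios of the thymosins and other members was not tested.

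**Figure D4:**
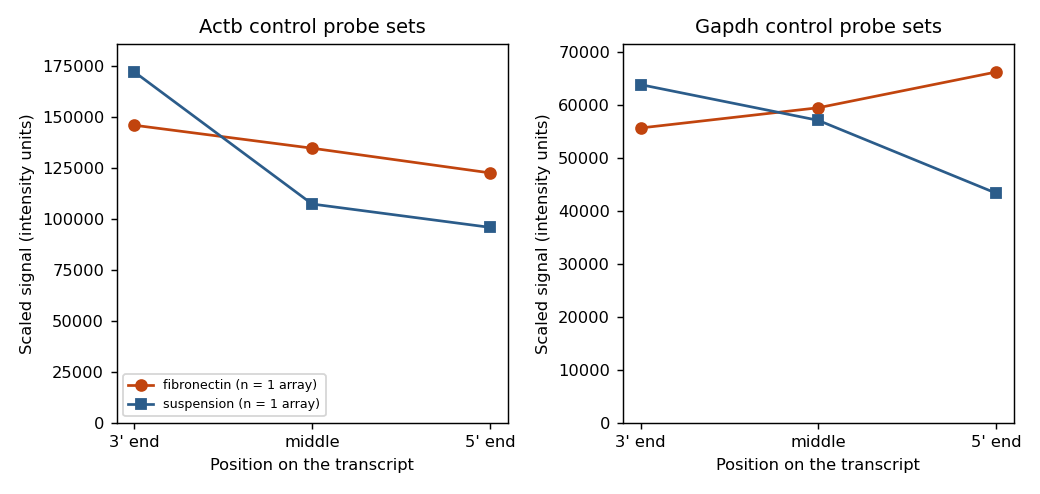
Scaled signals of the 3′, middle and 5′ control probe sets of Actb (left) and Gapdh (right) on fibronectin (circles) and in suspension (squares), 1 array each. In suspension the signal is highest at the 3′ end for both transcripts, and on fibronectin Actb is more even and Gapdh is highest at the 5′ end.

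Genes that act on actin had ratios on both sides of 0, and the balance moved with the scaling. Over 4 lists of actin regulators, without the members, 82 genes were measured, of which 41 had a ratio below 0 and 41 above. At 1.5-fold 10 were lower and 10 higher, and at 2-fold 2 were lower and 2 higher, shares under those of all measured genes given above. Under median scaling 4 were at least 1.5-fold lower and 19 higher, and with scaling to the spikes 30 were lower and 2 higher. The median was 0.0050, which became 0.20 with median scaling and -0.45 when the spikes set the scale. That of all measured genes moved as well, from -0.09 to 0.10 and -0.51. Shares of all measured genes past 1.5-fold were not counted under those scalings.

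Of 30 measured genes that bind monomers, nucleate filaments or turn them over, 4 were lower by 1.5-fold or more and 4 higher. Over all measured genes these shares were 22.4% and 15.8%. Pfn1, a profilin that binds monomers in competition with thymosin β4, had a signal of 1290 on fibronectin and 2208 in suspension, 1.71-fold lower, with a fibronectin signal that did not exceed the 95th percentile of negative controls. Limk1, the kinase that inactivates cofilin, had 2406 on fibronectin and 1085 in suspension, 2.22-fold higher, with the suspension signal below that percentile. Arpc5l, a subunit of the Arp2/3 nucleation complex, had 1749 on fibronectin and 2845 in suspension, 1.63-fold lower, and its fibronectin signal was also below the percentile.

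Among 23 measured cross-linkers and membrane linkers 16 had a ratio above 0. Their median was 0.20, against -0.09 for all measured genes and 0.10 for the brightest 10% of them. With scaling to the spikes the median of this list was -0.28 and that of all measured genes -0.51. Fscn1, which bundles filaments in filopodia, had 16960 on fibronectin and 32913 in suspension, 1.94-fold lower. The membrane linker gene Rdx had 3712 on fibronectin and 1975 in suspension, 1.88-fold higher. Fscn1 and Rdx thus lay on opposite sides within this list, and both were above the negative controls in both arrays.

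Of 14 measured capping and severing genes 1 was lower by 1.5-fold or more and 1 higher, against 22.4% and 15.8% of all measured genes. Add1, an adducin that caps filament ends, had 3543 on fibronectin and 5664 in suspension, 1.60-fold lower. All signals of Evl, the other gene past 1.5-fold, lay below the negative control percentiles. Of 16 measured actin-related and actin-folding genes 2 were at least 2-fold lower, Cct6b and Actr1a, and 1 higher, Vbp1. Over all measured genes these shares were 9.15% and 5.75%. Cct6b had 573 on fibronectin and 1503 in suspension and Actr1a had 637 on fibronectin and 1512 in suspension, and both fibronectin signals lie below the negative control percentile. Vbp1, a prefoldin subunit that delivers unfolded actin to its chaperonin, had 3680 on fibronectin and 1766 in suspension, 2.08-fold higher.

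**Figure D5:**
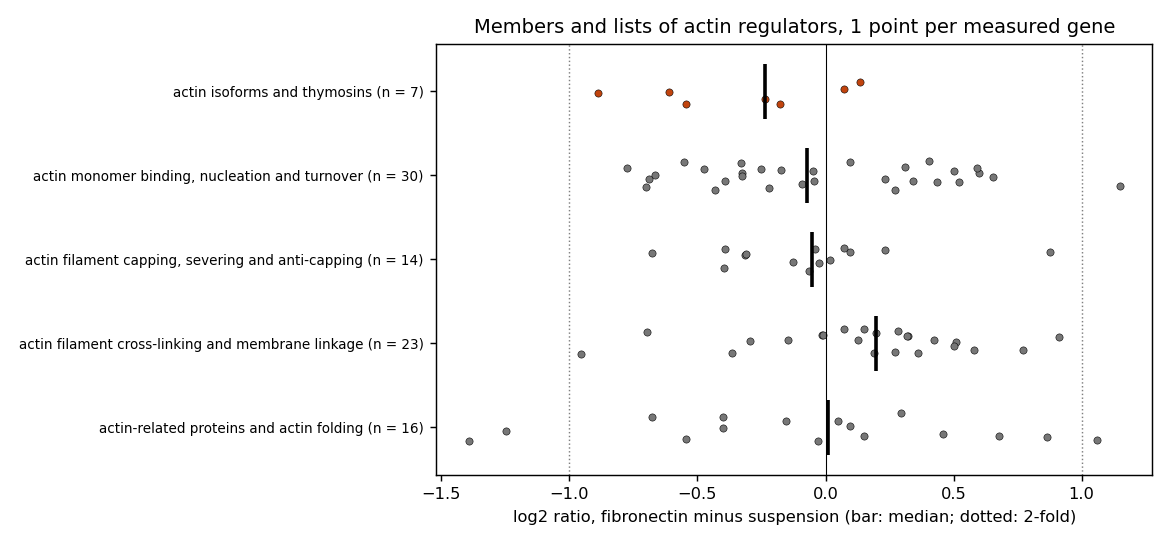
Log2 ratios (fibronectin minus suspension) of the 7 measured members and of the measured genes of 4 actin regulator lists, 1 point per gene, read from its brightest probe set, with bars at the medians. The medians lie between -0.24 for the members and 0.20 for the cross-linkers, and all of them are below 0 with scaling to the spikes.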

How the data were processed

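Per the labels' protocols, total RNA of 2 samples was extracted with RNeasy, labelled with biotin and hybridised to 1 MG_U74Av2 array per group. The authors deposited linear intensities, 1 per probe set, which the submitters' processing notes credit to MAS5. The sources used here do not give its version or target value. Of 33 instrument settings given for both arrays 4 differed, namely the chip lot, operator, fluidics module and scan day, and their effect cannot be told apart from that of the group.

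Each array was scaled to the mean of both 2% trimmed means over 12422 non-control probe sets (factors 1.00 and 0.999). The floor was the mean of both 40th percentiles. Names came from the platform annotation, with gene IDs updated through RefSeq (10839 of 10855 with 1 symbol matched, 0 symbols changed). A gene was read from its brightest measured probe set, for Actb with the controls. Negative controls were 34 antisense, bacterial and yeast control probe sets. With 1 array per group no test was made. The shared functions of the scripts were tested on simulated data, with larger changes and less scatter than here. That check does not show how reliable the counts at 1.5-fold and 2-fold are. The members, lists and thresholds were chosen with earlier results of these data known. The genes named were all members and, of each list, genes among its 3 largest absolute ratios. Loess (span 0.3) and quantile alternatives used limma 3.58.1 in R 4.3.3. Whether the brightest signals were saturated was not tested. A further list of regulators is not reported here.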

Additional observations from a re-analysis of the deposited data

How the results depend on the processing

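No paired analysis was possible because each group has 1 array, and for the same reason no array could be left out. Of 13 probe sets, 5 stayed below 0 under all 10 other scalings and floors and 0 stayed above 0. The 5 were both thymosins, Actg2, and the family and shared probe sets of Actb, whose signals no floor can move. Scaling to the spikes lowered all ratios with both signals above the floor by 1 common amount. The highest member ratio went from 0.35 to -0.12. The 5 and the 0 are therefore not weighed against each other. With scaling to the hybridisation spikes 6 probe sets and 3 genes of the members were at least 2-fold lower, with a median of -0.71. The median of all measured genes was then -0.51. In the regulator lists 10 genes were at least 2-fold lower and 0 higher with that scaling. Shares of all measured genes past 2-fold were not counted for the other scalings and floors. With no floor, or a floor at the 20th percentile, 2 probe sets of the members were at least 2-fold lower, as the incomplete probe set of Actc1 then had a ratio of -1.83. Without the β-actin controls 1 gene was at least 2-fold lower, since Actb was then read from its family probe set. For the regulator lists, the count at least 2-fold higher was 5 under median scaling, 4 with no floor and also with a floor at the 20th percentile, and 0 with a floor at the negative controls or with a pseudocount. The count at least 2-fold lower was 8 with no floor and also with a floor at the 20th percentile, 0 with a floor at the 60th percentile or at the negative controls, and 1 with a pseudocount. The β-actin 3′ over 5′ difference was -0.59 under every floor and with a pseudocount, and -0.45 with quantile normalization and -0.55 with loess, which were added for it after the data were seen. Signals of Acta1 and of the incomplete probe set of Actc1 are too close to those of the negative controls to carry a ratio.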

Other observations

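Other control transcripts on the array were read at both ends as well. For 18S rRNA the signal of the 3′ control over that of the 5′ control was 3.62 on fibronectin and 4.90 in suspension, in the same direction as Actb and Gapdh. For Pcx, the pyruvate carboxylase gene, it was 2.35 on fibronectin and 2.43 in suspension, with both 5′ signals below the 95th percentile of negative controls. For Tfrc, the transferrin receptor gene, it was 4.41 on fibronectin and 2.84 in suspension, with all of these Tfrc signals below the 95th percentile of negative controls.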
